A study of Caenorhabditis elegans with 2 samples.

Results

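The vacuolar ATPase genes vha-1, vha-2, vha-3, vha-4, vha-8, vha-13 and vha-18 of Caenorhabditis elegans were examined for chromatin bound by MADF-3, a protein with a MADF domain, a fold of the Myb kind that contacts DNA. They are 7 of 21 vacuolar ATPase genes listed by subunit, among 19973 protein-coding genes of the nuclear chromosomes. The members were chosen by measured values: vha-1, vha-2, vha-8, vha-13 and vha-18 had been selected on having a peak in the thresholded list near their 5′ end, and the proteolipid genes vha-3 and vha-4 were added for their subunit class. Their peaks are therefore given as a description with no test. Both samples were whole young adults of strain RW12241, aged 63 hours and synchronised as starved L1 larvae after bleaching. They carried st12241, a CRISPR insertion that puts TY1, EGFP and 3xFLAG on madf-3 on chromosome II. Chromatin was sheared by sonication and pulled down with an antibody against GFP, and the 2 samples are biological replicates of 1 group. All tissues of the worm were pooled, so a weak peak in many cells and a strong one in few cells cannot be told apart.

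The vacuolar ATPase is a proton pump of lysosomes, endosomes and some plasma membranes. Its V1 sector, in the cytosol, hydrolyses ATP, and its V0 sector, in the membrane, holds a ring of proteolipid subunits that turns and carries protons across. In the worm it is known for acidifying lysosomes and the gut lumen and for its high expression in the excretory cell. The product of vha-1, vha-2 and vha-3 is the proteolipid c of that ring, and that of vha-4 is the related c″. In the V1 sector, vha-13 encodes the catalytic A subunit, vha-8 the E subunit of the peripheral stalk, and vha-18 one of the worm's H subunits, which regulate the enzyme.

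Only peak lists were analysed, without counts of reads, so library depth is unknown and no interval could be set on a signal. The signal of a peak is the caller's strength as deposited, on a scale that the labels and file descriptions do not explain, and the summit is the base at which the caller placed its maximum. The series-wide thresholded list held 2741 peaks that passed a cut on the irreproducible discovery rate (IDR), a measure of how well a peak's place in the ranking is repeated in another set of peaks. Its lowest score, a number up to 1000 made from the IDR, was 830. The matching ranked list held 113502 peaks with no such cut. A promoter peak here is one with its summit within 500 bp of the annotated 5′ end of a protein-coding gene, and negative distances are upstream. For a replicate's signal at a gene, the strongest peak that overlapped the series-wide one was taken from the ranked list of that replicate.

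The sequences under the summits are shown for vha-1 and vha-18, which held the strongest member peaks. That of vha-8 is shown because its peak was the weakest member peak in the thresholded list. Those of vha-2 and vha-3 are shown as a pair of closely similar genes whose summits lay just inside their coding sequences. Each window is 201 bases of build ce11 with the summit at base 101, printed 5′ to 3′ on the strand of the gene: chrIII:9780712-9780912 (+) for vha-1, chrV:8413714-8413914 (-) for vha-18, chrIV:6790567-6790767 (+) for vha-8, chrIII:9782119-9782319 (+) for vha-2 and chrIV:2315812-2316012 (-) for vha-3. Capitals mark sequence words frequent under the strongest peaks of the series in vha-1 and vha-18, and the start codon in vha-2 and vha-3. The window of vha-8 held none of either.
vha-1: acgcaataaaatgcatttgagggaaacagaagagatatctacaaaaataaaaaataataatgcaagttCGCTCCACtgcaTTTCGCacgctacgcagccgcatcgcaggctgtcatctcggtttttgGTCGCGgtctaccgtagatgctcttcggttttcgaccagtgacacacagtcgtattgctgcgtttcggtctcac
vha-18: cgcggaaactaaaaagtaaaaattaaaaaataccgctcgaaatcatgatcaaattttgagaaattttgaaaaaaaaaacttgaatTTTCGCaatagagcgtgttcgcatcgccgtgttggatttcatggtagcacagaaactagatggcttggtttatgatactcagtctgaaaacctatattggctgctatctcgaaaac
vha-8: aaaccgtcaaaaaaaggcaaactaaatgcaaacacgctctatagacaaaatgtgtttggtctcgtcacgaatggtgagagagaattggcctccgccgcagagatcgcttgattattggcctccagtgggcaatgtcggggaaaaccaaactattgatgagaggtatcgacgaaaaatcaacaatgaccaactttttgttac
vha-2: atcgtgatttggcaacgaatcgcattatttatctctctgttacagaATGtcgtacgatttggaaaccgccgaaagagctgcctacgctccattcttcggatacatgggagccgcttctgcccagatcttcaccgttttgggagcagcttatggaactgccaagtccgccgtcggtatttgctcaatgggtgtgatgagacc
vha-3: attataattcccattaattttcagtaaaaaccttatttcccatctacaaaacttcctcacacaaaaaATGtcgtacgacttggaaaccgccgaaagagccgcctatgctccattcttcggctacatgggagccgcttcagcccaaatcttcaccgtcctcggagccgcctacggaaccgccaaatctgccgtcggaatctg

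Signals at the 7 genes ran over a wide range, with vha-1 far above the others. Of the 7, 5 had a promoter peak in the thresholded list, beside 6.26% of all protein-coding genes; since that list chose them, nothing is read from this count. In a further deposited list named conservative, of 2631 peaks, the same 5 had one, beside 6.14% of all genes. In the replicates' own thresholded lists only vha-1 and vha-18 had one, in both, beside 3.02% of all genes for replicate 1 and 2.85% for replicate 2. In the ranked list all 7 had a summit within the window, as did 74.4% of all genes.

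At the proteolipid gene vha-1 (WBGene00006910, III 9781254 to 9781763, plus strand) the signal was 499 in replicate 1 and 431 in replicate 2, a mean of 465 ± 48.2 (SD, n = 2). Both replicates were above every value at the other 6 genes. The peak spanned III 9780714 to 9780917, and its series-wide signal of 923 stood at rank 15 of 2741. In the replicates' own ranked lists it stood at rank 22 of 77320 in replicate 1 and rank 21 of 79846 in replicate 2. The next strongest ranked peak with a summit within 1000 bp reached 74.96, so that the vha-1 peak was 12.3 times as strong.

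The genes W03C9.5, rsp-1, Y48B6A.1 and rpl-3 bracketed it in the thresholded ranking, taken as the nearest genes to the peaks next above and below. W03C9.5 at rank 13 had 565 and 497 in replicates 1 and 2, and rsp-1, an SR splicing factor gene, at rank 14 had 508 and 524. Below vha-1, Y48B6A.1 at rank 16 had 487 and 442.5, and rpl-3, a ribosomal protein gene, at rank 17 had 482 and 424. The replicate ranges of vha-1 overlapped those of Y48B6A.1, rpl-3 and W03C9.5, and lay below that of rsp-1. The summits of these 4 genes lay between -140 and -283 bp, closer to the 5′ end than that of vha-1 at -442 bp.

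**Figure D1:**
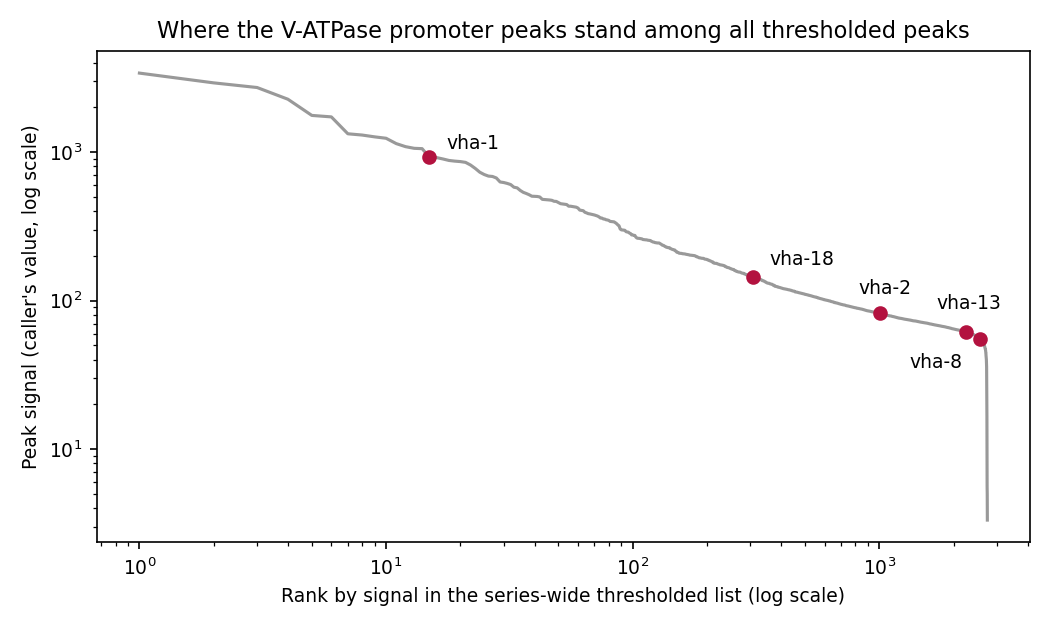
Peak signal (caller's value, log axis) against rank by signal (log axis) in the series-wide thresholded list. The grey line is all 2741 peaks and red points are the 5 vacuolar ATPase promoter peaks, of which vha-1 stands at rank 15, vha-18 at rank 307, and vha-8 at rank 2569 near the end of the list.

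At vha-2 (WBGene00006911, III 9782164 to 9783224, plus strand) the signals were 43.5 and 44.2 in replicates 1 and 2. The mean of 43.9 ± 0.484 (SD, n = 2) was far below that of vha-1, although the genes are tandem neighbours with 400 bp between them. The peak, at III 9782109 to 9782328, stood at rank 1002 with a series-wide signal of 82.18. It was 1.36 times as strong as the next ranked peak within 1000 bp. Its summit, at 55 bp, lay in the first coding exon of vha-2, which begins 1 bp after the annotated 5′ end.

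The other proteolipid genes had no thresholded promoter peak. At vha-3 (WBGene00006912, IV 2315460 to 2315945, minus strand) a ranked peak at 33 bp, in the coding sequence, had a signal of 32.1 in replicate 1 and 13.6 in replicate 2. That spread gave 22.85 ± 13.1 (SD, n = 2), the widest relative to its mean among the 7 genes. Its score was 274, and another ranked peak 331 bp away was nearly as strong, a ratio of 1.14. At vha-4 (WBGene00006913, II 7878082 to 7879316, minus strand) the ranked peak at -126 bp had 14.6 and 11.8, a mean of 13.2 ± 1.94 (SD, n = 2), with a score of 75. A stronger ranked peak of 41.95 lay within 1000 bp of it, and the nearest thresholded summit was at -1264 bp.

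Among the V1 genes, vha-18 (WBGene00018698, V 8411775 to 8413482, minus strand) was the highest, with 63.4 in replicate 1 and 78.7 in replicate 2. Its mean was 71.05 ± 10.8 (SD, n = 2), and both values were above those of every other member but vha-1. The peak, at V 8413704 to 8413923, stood at rank 307 with a series-wide signal of 144 and was 3.3 times the next ranked peak within 1000 bp.

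The catalytic subunit gene vha-13 (WBGene00013025, V 14351709 to 14354422, plus strand) had 32.1 and 36.7 in replicates 1 and 2, a mean of 34.4 ± 3.25 (SD, n = 2). Its peak, at V 14351133 to 14351352, had rank 2247, a score of 870 and a signal 1.53 times that of the next ranked peak within 1000 bp. A further thresholded peak lay in its coding sequence at 610 bp, with 24.8 in replicate 1 and 48.6 in replicate 2, and its series-wide signal of 64.31 was above the 61.42 of the promoter peak. The stalk gene vha-8 (WBGene00006917, IV 6791074 to 6792455, plus strand) had 28.3 and 30.8, a mean of 29.5 ± 1.77 (SD, n = 2). Its peak, at IV 6790557 to 6790776, had rank 2569, a score of 1000 and a signal 1.69 times that of the next ranked peak within 1000 bp. The replicate 2 summit lay outside that span, 117 bp from the replicate 1 summit. The 2 replicate values may therefore not measure the same peak. Another thresholded summit, past the end of vha-8 at 1492 bp, had a series-wide signal of 67.63, above the 55.06 of the promoter peak.

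From high to low, the mean signals put vha-1 first, then vha-18 and vha-2, then vha-13, vha-8, vha-3 and vha-4. The replicate ranges of neighbours in that order did not overlap down to vha-8. Those of vha-8 and vha-3 overlapped, as did those of vha-3 and vha-4, so these neighbours were not ordered beyond the replicate spread.

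**Figure D2:**
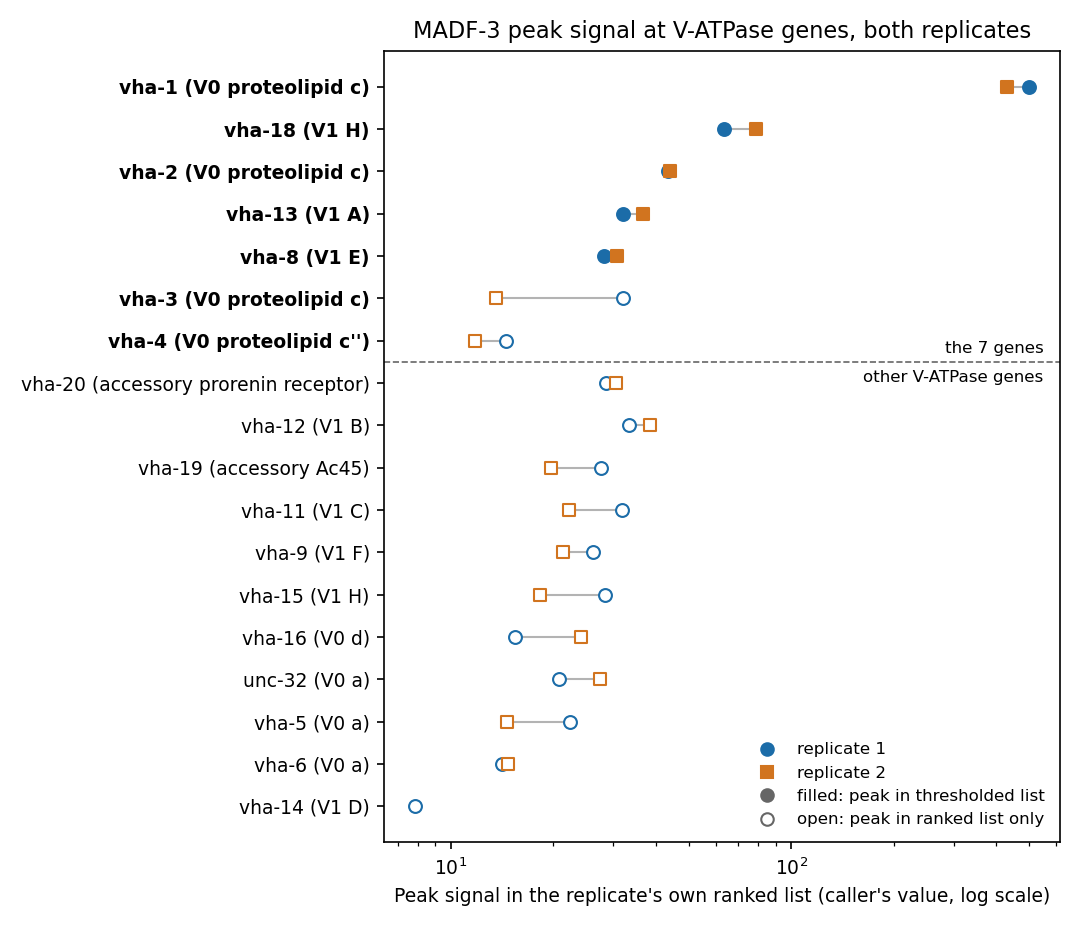
Peak signal in each replicate (log axis) at the 18 vacuolar ATPase genes with a ranked promoter peak, with circles for replicate 1, squares for replicate 2 and a grey line joining them. The 7 genes stand above the dashed line and the others below it; filled symbols have a peak in the series-wide thresholded list. Only vha-1, vha-18 and vha-2 lie above 40 in both replicates, and vha-14 has no overlapping replicate 2 peak.

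The thresholded list, which chose 5 of the members, did not follow the signal alone among vacuolar ATPase genes. The V1 B subunit gene vha-12 had 33.5 and 38.5 in replicates 1 and 2 at -327 bp, with a series-wide signal of 62.82. The accessory gene vha-20, related to the prorenin receptor, had 28.5 and 30.7 at 281 bp, with a series-wide signal of 66.99. Both series-wide signals were above those of vha-13 at 61.42 and vha-8 at 55.06. Yet the scores of 341 for vha-12 and 455 for vha-20 were under the thresholded list's lowest of 830. Another deposited series-wide ranked list, of 113670 peaks, gave different scores. They were 1000 for vha-12 and 860 for vha-20, beside 1000 for vha-13 and 854 for vha-8. The peaks of vha-12 and vha-20 were both in the conservative list. That list held a promoter peak at 2 of the 14 other vacuolar ATPase genes, beside 6.14% of all protein-coding genes. Over the whole ranked list of 113502 peaks, 4741 had a signal at or above that of vha-8. Of these, 2569 were in the thresholded list and 2172 were not.

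The V0 e subunit gene vha-17 was the other case near the boundary. A thresholded summit lay at 814 bp from its 5′ end, in the coding sequence of nspg-11, with 14.8 in replicate 1 and 44.7 in replicate 2. In the thresholded list 0 of the 14 other vacuolar ATPase genes had a promoter peak, which the choice of members fixed. In the ranked list 11 of the 14 had one, beside 74.4% of all genes; vha-7, vha-10 and vha-17 had none. The strongest ranked promoter signal of those 11 had a median of 46.2, against 31.4 over the 14850 protein-coding genes with such a peak. After vha-12 and vha-20, the highest mean among them was that of vha-11, a V1 C subunit gene, with 31.8 in replicate 1 and 22.2 in replicate 2.

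The replicates placed the strong and the weak summits with different precision. The summit of vha-1 was at -446 bp in replicate 1 and -440 bp in replicate 2, 6 bp apart. That of vha-18 was at -329 and -336 bp, 7 bp apart. At the 3 weaker genes the replicates were much further apart: 79 bp at vha-2, 87 bp at vha-13 and 117 bp at vha-8. Over all thresholded peaks met in both replicates the median was 19 bp, with 8 bp among the 250 strongest and 23 bp, quartiles 9 and 50 bp, among those past rank 1000.

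The wide spacing moved some replicate summits out of the promoter window. Replicate 1 placed the vha-13 summit at -543 bp and had no ranked summit within 500 bp of that 5′ end, while replicate 2 placed it at -456 bp. At vha-8, replicate 2 placed the summit at -524 bp, and its strongest summit inside the window was another peak, with a signal of 15.58. Ranked peaks of similar strength were common around these genes: within 1500 bp of the vha-8 5′ end, replicate 1 listed 4 peaks of 12.02 to 32.4 and replicate 2 listed 5 of 10.5 to 33.6.

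**Figure D3:**
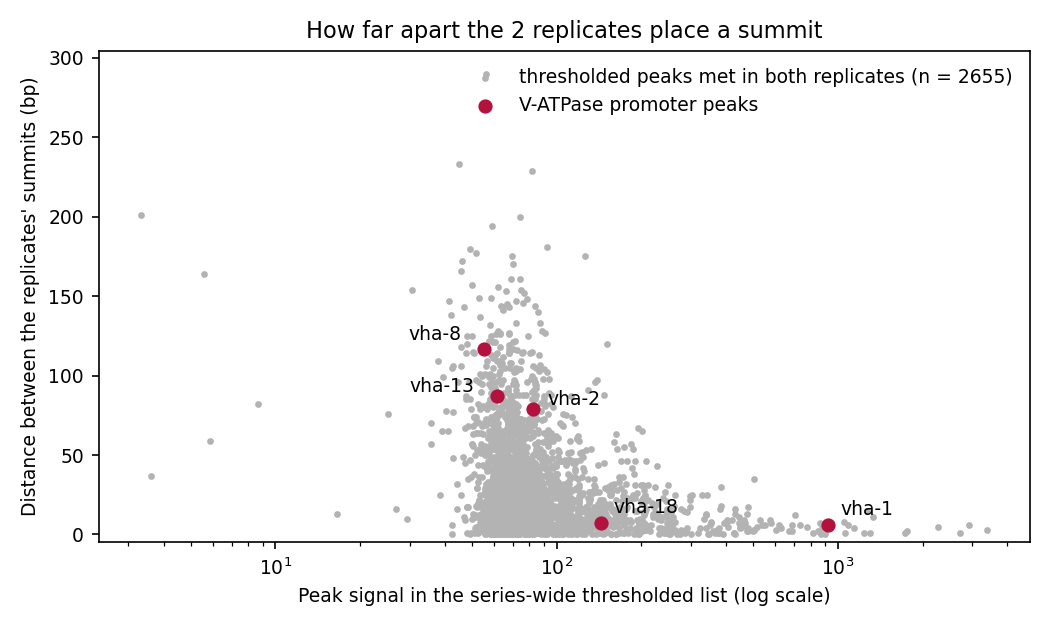
Distance in bp between the summits of replicate 1 and replicate 2 against peak signal (log axis). Red points are the 5 vacuolar ATPase promoter peaks and grey points the 2655 thresholded peaks met by a peak in both replicates. The summits at vha-1 and vha-18 are 6 and 7 bp apart, and those at vha-2, vha-13 and vha-8 are 79 to 117 bp apart.

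The annotation around the 5 thresholded peaks took 3 forms. The peaks of vha-1, vha-8 and vha-18 lay between divergent genes, with both 5′ ends within 500 bp. At vha-1 the summit was about midway in 899 bp between the genes, at -442 bp from vha-1 and -458 bp from sqv-3, which encodes a galactosyltransferase of proteoglycan synthesis. At vha-8 it was nearer to C17H12.2, at -179 bp, than to vha-8, at -407 bp, in 585 bp. At vha-18 it was nearer to pos-1, which encodes a maternal zinc-finger RNA-binding protein, at -272 bp, than to vha-18, at -332 bp, in 603 bp. Peaks alone do not assign a summit to either gene of such a pair. Over all 1082 thresholded promoter peaks, 179 (16.5%) lay between divergent 5′ ends that were both within 500 bp.

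The vha-2 peak lay in coding sequence, and the vha-13 peak lay upstream of its gene in a 3′ UTR exon of cept-2, which encodes a phospholipid-synthesising transferase. That gene is on the same strand and ends 226 bp before vha-13. A gene's annotated 5′ end in C. elegans can be the site where a spliced leader is joined to the transcript, and transcription then begins further upstream. At vha-1 and vha-3 the annotated 5′ end was the start codon itself, with 0 bases before it, and it was 1 base before the start codon at vha-2 and 3 bases before it at vha-4. It was 24 bases before the start codon at vha-8, 8 at vha-13 and 7 at vha-18, and the median over all protein-coding genes was 15. Distances from these ends are therefore distances from the annotation, and where transcription starts was not measured.

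The thresholded peaks around vha-1 and vha-2 formed a row of separate summits. Beside the main one, a peak at -949 bp from vha-1 lay in the coding sequence of sqv-3, with 39.04 in replicate 1 and 26.1 in replicate 2. The vha-2 peak stood at 965 bp on the same scale. A further thresholded summit at 1168 bp from vha-2 had a series-wide signal of 118.1, above the 82.18 of the vha-2 peak, with 58.88 in replicate 1 and 54.77 in replicate 2. It lay past the end of vha-2, inside R10E11.6, which is on the same strand. The annotated 5′ end of R10E11.6 was at 842 bp from that of vha-2. Under the 500 bp rule the summit is a promoter peak of R10E11.6, not of vha-2. Inside vha-1 itself no thresholded summit was found, and the ranked summits there reached 17.02 in replicate 1 and 36.9 in replicate 2.

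**Figure D4:**
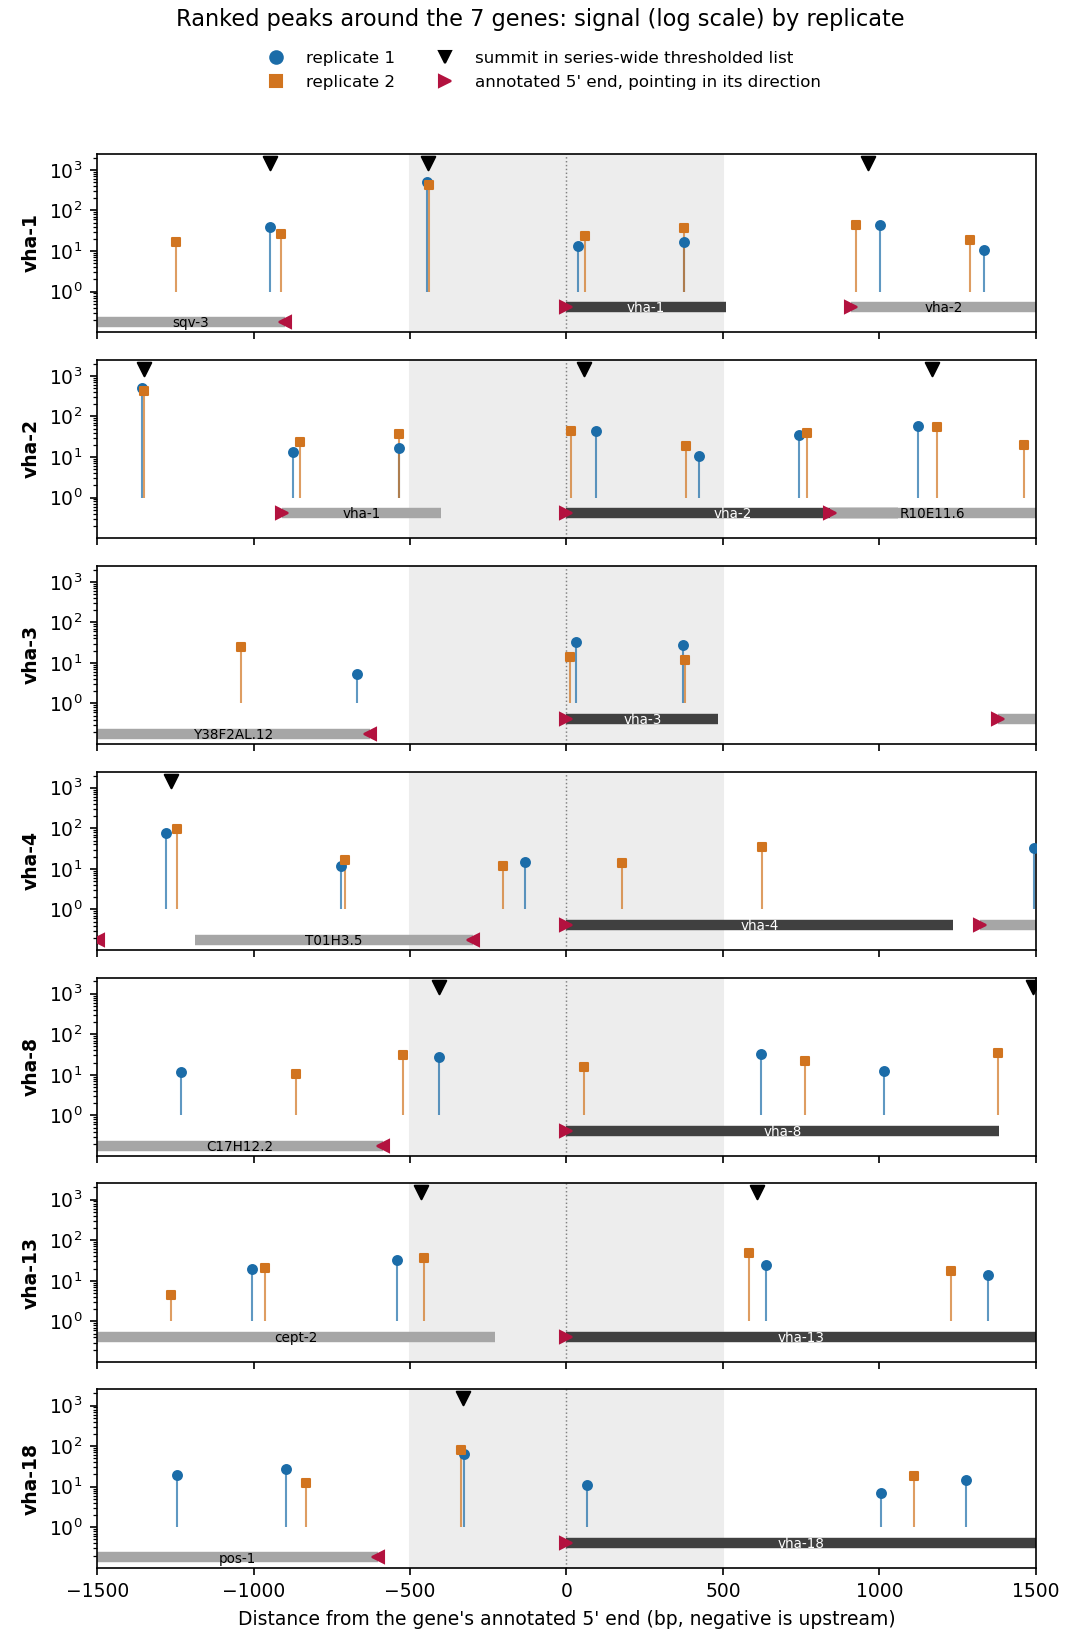
Summits of the ranked peaks of replicate 1 (circles) and replicate 2 (squares) within 1500 bp of the annotated 5′ end of each of the 7 genes, with the height showing signal on a log axis. Grey bars are genes, dark for the gene named at the left, in the upper row for its strand and the lower row for the other strand; red arrowheads mark annotated 5′ ends, black triangles thresholded summits and shading the 500 bp window. At vha-1 the summits at -446 and -440 bp stand far above all others, and at vha-8 and vha-13 the replicate summits straddle or near the edge of the window.

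Of the 5 windows at thresholded member peaks, those of vha-1 and vha-18 held words frequent under the strongest peaks. Both held a shorter word, described below, as did 38.9% of all windows and 50% of those of promoter peaks. The 12 words of 8 letters most in excess under 249 of the 250 strongest peaks, with vha-1 left out, were searched on both strands in the 201-base windows; several of them overlap each other. One, CGCTCCAC, was in the vha-1 window, at -32 bases from the summit, and in 2.08% of all 2741 windows and 0.438% of flanking windows of the same length. None of the 12 was in the windows of vha-18, vha-2, vha-13 or vha-8. At least 1 of the 12 was in 46.8% of the windows of the 250 strongest peaks, 14.5% of all windows and 3.67% of flanking windows. These shares, and those of the shorter words below, were counted on windows that include the ones that chose the words. Their excess over flanking windows was therefore in part built in by the choice.

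At least 1 of 6 shorter words was in 2 of the 5 windows, beside 38.9% of all windows, 50% of those of promoter peaks and 23.2% of flanking windows. Of these 6 words of 6 letters found the same way, CGCGAC was in the vha-1 window, read as GTCGCG at 27 bases from the summit. The word GCGAAA was in the vha-1 window, read as TTTCGC at -20, and in the vha-18 window, read as TTTCGC at -15. GCGAAA was in 18.3% of all windows and 13.9% of flanking windows, and CGCGAC in 8.83% of all windows and 3.25% of flanking windows. The named motifs CACGTG (a core bound by many basic helix-loop-helix factors), TGATAA (bound by gut transcription factors of the worm) and CTGCGTCT were in 0 of the 5 windows. Their shares of all windows were 5.18% for CACGTG, 11.5% for TGATAA and 5.58% for CTGCGTCT. In flanking windows the shares were 3.52% for CACGTG, 17.2% for TGATAA and 1.24% for CTGCGTCT. TGATAA was thus rarer at summits than in the flanks. The median GC content was also higher at summits, at 43.8%, than in the flanks, at 37.3%. The part of base composition in this difference was not tested. CTGCGTCT is the reverse complement of 1 of the 12 words.

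Base composition differed among the windows. The GC content was 46.3% at vha-1, against 35.3% in its flanks, and 49.8% at vha-2, against 41.5%. It was 54.7% at vha-13, against 29.6%, and 43.3% at vha-8, against 30.1%. At vha-18 it was 35.3%, against 38.8% in its flanks, the only one of the 5 below its surroundings. The medians over all thresholded peaks were 43.8% at the summit and 37.3% in the flanks.

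Short reads can be placed on a similar copy of their sequence. Identity among the proteolipid genes, and runs of the thresholded member peaks repeated elsewhere, were therefore measured. The coding sequences of vha-2 and vha-3 were identical at 411 of 483 aligned bases (85.1%), while the other proteolipid pairs were identical at 58.6% to 67.9%. The longest run of the vha-2 peak found elsewhere in the genome was 20 bp, in vha-3, and the windows of both genes printed above share the first bases after the start codon. The longest such runs were 20 bp for the vha-1 peak, 20 bp for vha-8 and 18 bp for vha-13. The vha-18 peak shared a run of 57 bp with a place in Y44A6D.6 elsewhere on V. The part of read placement in these signals was not tested.

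Genes that act with the pump at the lysosome were listed for comparison. Of 24 lysosome and nutrient-sensing genes, 5 (20.8%) had a thresholded promoter peak, beside 6.26% of all protein-coding genes; the list was chosen with earlier results of these data known. The gene of the Rheb GTPase that activates TOR, rheb-1, had 49.9 in replicate 1 and 59.9 in replicate 2 at -275 bp. The late endosomal GTPase gene rab-7 had 44.98 and 58.7 at 78 bp, and its series-wide signal was 0.0959 times that of the strongest other ranked peak within 1000 bp, that of W03C9.5. The Ragulator genes lmtr-2 and lmtr-3 encode subunits of a complex that binds the pump: lmtr-2 had 49.8 and 39.2 at 77 bp, and lmtr-3 had 43.5 and 25.6 at -62 bp. The aspartic protease gene asp-1 had 38.05 and 31.2 at 41 bp, with a series-wide signal 0.881 times that of the strongest other ranked peak within 1000 bp. All 5 stood below vha-1 and vha-18 in both replicates, and the replicate range of lmtr-2 overlapped that of vha-2. The gene of HLH-30, the worm's TFEB, which activates lysosomal genes, had no thresholded peak within 500 bp of its 5′ end. With the 5′ ends of all transcripts taken, hlh-30 and cpl-1 were added and the count was 7, beside 6.88% of all protein-coding genes.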

How the data were processed

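Peak lists of MADF-3 ChIP-seq were analysed from 2 biological replicates. Per the labels, positions refer to build ce11; control libraries were not used here. Names of the aligner and peak caller were not given in the sources used here. Each peak's signal, score and −log10 of the IDR (capped at 5) are the authors' deposited values. Peaks were called series-wide and per replicate, and the deposited descriptions name further input files without saying what those hold, so a place in the series-wide list is not read as agreement between replicates.

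Gene models were those of Ensembl release 115 for WBcel235, the assembly of ce11, and sequences were read from the RefSeq genome of that assembly. Coordinates are 1-based. Distances run from the gene's annotated 5′ end to the summit, and a promoter peak lies within 500 bp. Words were counted 100 bp either side of summits, with flanking windows centred 400 bp away. Scripts used Python 3.11.15, pandas 2.3.3 and numpy 2.4.6, and promoter assignment was tested on simulated data, where 111 of 111 summits placed in the window were found over 19973 genes. Values at weak peaks have unknown counting error.

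Named genes were all 7 members, other vacuolar ATPase genes with a thresholded summit within 1000 bp or among the 3 highest in mean signal, listed lysosome genes with a promoter peak, neighbours within 500 bp of a member's summit, and the genes ranked around vha-1. The genes vha-7, vha-10, vha-14, nspg-11, cept-2, R10E11.6, Y44A6D.6, cpl-1 and hlh-30 were named outside that rule, after their values were seen. The members and lists were chosen with earlier results of these data known. No test was run, since the members were chosen by these values. Alternatives were other lists, windows, 5′ ends, peak matching and each replicate alone.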

Additional observations from a re-analysis of the deposited data

How the results depend on the processing

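Of the 7 members, 5 had a promoter peak, beside 6.26% of all genes. This fell to 3 among the stronger 50% of the peaks (vha-1, vha-2, vha-18; 4% of all genes), to 1 with a window of 200 bp (vha-2; 3.15%) and to 3 with each summit given to the nearest 5′ end only (vha-1, vha-2, vha-13; 5.2%). In the list of either replicate alone it was 2 (vha-1, vha-18; 3.02% and 2.85%). The count over all 21 vacuolar ATPase genes took the same values, 3, 1, 3 and 2, under these settings. With the conservative list it was 7, beside 6.14%, and a 1000 bp window gave 6, beside 8.76%. The count of lysosome and nutrient-sensing genes was 5 of 24, beside 6.26% of all genes. In the list of replicate 1 alone it was 2 (lmtr-2 and rab-7, beside 3.02%). In that of replicate 2 alone it was also 2 (rheb-1 and rab-7, beside 2.85%). The remaining alternatives kept these counts within 1.5 times. The summit distances of vha-3, vha-4, vha-8 and vha-13 moved by more than 1 SD in 1 replicate. The number of windows holding a frequent word was 1 with words of 8 letters and 2 with words of 6 letters, chosen after seeing the data. The nearest-summit match gave no value at vha-8, where no replicate 2 summit lay within 100 bp. The cause of these changes was not tested, beyond the shorter window and shorter lists. No paired analysis was possible because the series has 1 group. Depth is unknown, so weak peaks such as those of vha-3 and vha-4 have no error beyond the 2 replicates.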
